A study of Caenorhabditis elegans with 12 samples.

Results

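The glutathione peroxidase family of Caenorhabditis elegans was followed through messenger RNA of whole worms of 4 genotypes. The members are the genes that the WBcel235 annotation names gpx-1 to gpx-8, taken by name and not by any measured value. All 8 were among the 14326 genes of the deposited matrix. The libraries came from young adults not yet producing progeny, grown at 20 °C on plates of OP50 bacteria. The genotypes were wild type, the isp-1 mutant, isp-1;sod-5 and isp-1;sod-3, with 3 libraries of each, so both double mutants also carry the isp-1 mutation. ISP-1 is the Rieske subunit of complex III in the respiratory chain, sod-3 encodes a mitochondrial superoxide dismutase and sod-5 a cytosolic one. Labels name the mutated genes but no alleles. The design text reports 9 isolates per genotype combined 3 to a library, while each sample's own pooling label says none, so the spread between libraries may be partly technical.

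Glutathione peroxidases reduce hydrogen peroxide and lipid hydroperoxides to water and alcohols, drawing electrons from glutathione or thioredoxin. Superoxide dismutases make hydrogen peroxide from superoxide, so peroxidases act one step downstream of the enzymes that the double mutants lack. The worm genes gpx-1, gpx-2, gpx-6 and gpx-7 are counterparts of the mammalian phospholipid hydroperoxide enzyme, which clears oxidized lipids within membranes. The genes gpx-3 and gpx-5 resemble mammalian peroxidases that are secreted. For gpx-4 and gpx-8 no more specific role is stated here. The worm enzymes carry a cysteine where many mammalian family members carry selenocysteine.

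The 8 genes lie on 4 chromosomes of WBcel235. On chromosome X, gpx-5 (WBGene00007516, 9584668 to 9586344) and gpx-3 (WBGene00007517, 9587942 to 9588879) follow each other on the plus strand with 1597 bases between them. Their annotated proteins are of nearly equal length, 223 residues for gpx-5 and 224 for gpx-3. Also on X, gpx-7 (WBGene00019846) runs on the minus strand from 7798949 to 7799780. Chromosome IV holds gpx-4 (WBGene00022377, 2672962 to 2675015, minus strand) and gpx-6 (WBGene00020373, 8222202 to 8223461, plus strand), and chromosome II holds gpx-2 (WBGene00011045, 14866766 to 14869671, plus strand). On chromosome I are gpx-1 (WBGene00009165, 9780349 to 9781413, plus strand) and gpx-8 (WBGene00018850, 10782115 to 10782890, minus strand). The smallest annotated proteins are those of gpx-4, with 126 residues, and gpx-8, with 145. The gpx-8 model contains 3 exons and no untranslated region, so its annotated length of 438 bases covers only coding sequence. The gpx-1 exons share 90 of 565 bases with drsh-1, the Drosha gene, on the opposite strand. Whether counting used strand is not stated in these sources, so reads of the 2 genes cannot be told apart there. The drsh-1 level was 76.8 to 122 CPM (reads of the gene per 1000000 reads in genes) over the 12 libraries.

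Between 5438798 and 155071752 reads per library fell in genes. Family members together took 915 reads in the shallowest library, isp-1;sod-5 replicate 2, and 23393 in the deepest, isp-1;sod-3 replicate 1. No member was at 0 in any library, and the lowest count was 5 reads of gpx-4 in that shallowest library. The dismutase gene sod-3 was at 0.148 to 1.74 CPM in isp-1;sod-3, where it is mutated, against 18.6 to 20.7 CPM in isp-1. It was at 15.1 to 26.1 CPM in isp-1;sod-5, and wild type libraries held 1.68 to 2.60 CPM. The sod-5 gene was low in all 12 libraries, at 1.61 CPM or less. It was at 0.115 to 0.616 CPM in isp-1 and 0 to 0.350 CPM in isp-1;sod-5, so it checks that label only weakly. The isp-1 transcript was at 273 to 306 CPM in wild type and 332 to 348 CPM in the isp-1 mutant, and it does not check the label. One library stood apart: the ribosomal RNA gene rrn-3.1 took 0.337% of reads in isp-1;sod-5 replicate 3, against 1.81% to 7.12% in the other 11.

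The genes gpx-2 and gpx-5 supplied most of the family's transcripts. Levels are compared between genes as CPM per kilobase of annotated exon. By mean over the 12 libraries the order was gpx-2 (64.7 CPM per kb), gpx-5 (44.0), gpx-1 (25.6), gpx-7 (11.7), gpx-3 (8.88), gpx-8 (5.85), gpx-6 (2.09) and gpx-4 (0.807). The phospholipid-type gene gpx-2 was above gpx-5 in 12 of 12 libraries, gpx-5 was above gpx-1 in 12 of 12, and gpx-1 was above gpx-7 in 12 of 12. Across libraries, however, the ranges of gpx-2 (55.2 to 73.7 CPM per kb) and gpx-5 (31.3 to 57.1 CPM per kb) overlapped, as did those of gpx-5 and gpx-1. In the lower part of the order gpx-6 was above gpx-4 in 12 of 12 libraries, while gpx-7 over gpx-3, gpx-3 over gpx-8 and gpx-8 over gpx-6 held in 9 of 12 each. Together gpx-2 and gpx-5 made up 69.1% ± 0.611 of the length-corrected family total in wild type and 68.5% ± 2.48 in isp-1. Their share was lowest in isp-1;sod-5, at 61.5% ± 1.45, and was 67.2% ± 3.141 in isp-1;sod-3 (SD over 3 libraries here and below).

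The order changed with genotype in the lower part of the family. In wild type gpx-3 was above gpx-7, at 11.2 ± 0.519 against 8.55 ± 0.575 CPM per kb, in 3 of 3 libraries. In isp-1 gpx-7 was above gpx-3, at 12.1 ± 1.33 against 5.997 ± 0.362 CPM per kb, and gpx-7 was also the higher of the pair in 9 of 9 libraries with the isp-1 mutation. The gpx-8 gene was at 1.74 ± 0.231 CPM per kb in wild type and 15.5 ± 3.36 CPM per kb in isp-1;sod-5. There it stood above gpx-3 in 3 of 3 libraries and did not separate from gpx-7, at 13.99 ± 3.12 CPM per kb. Its length is coding length alone, so its place in the order is less certain than that of genes with annotated untranslated regions.

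**Figure D1:**
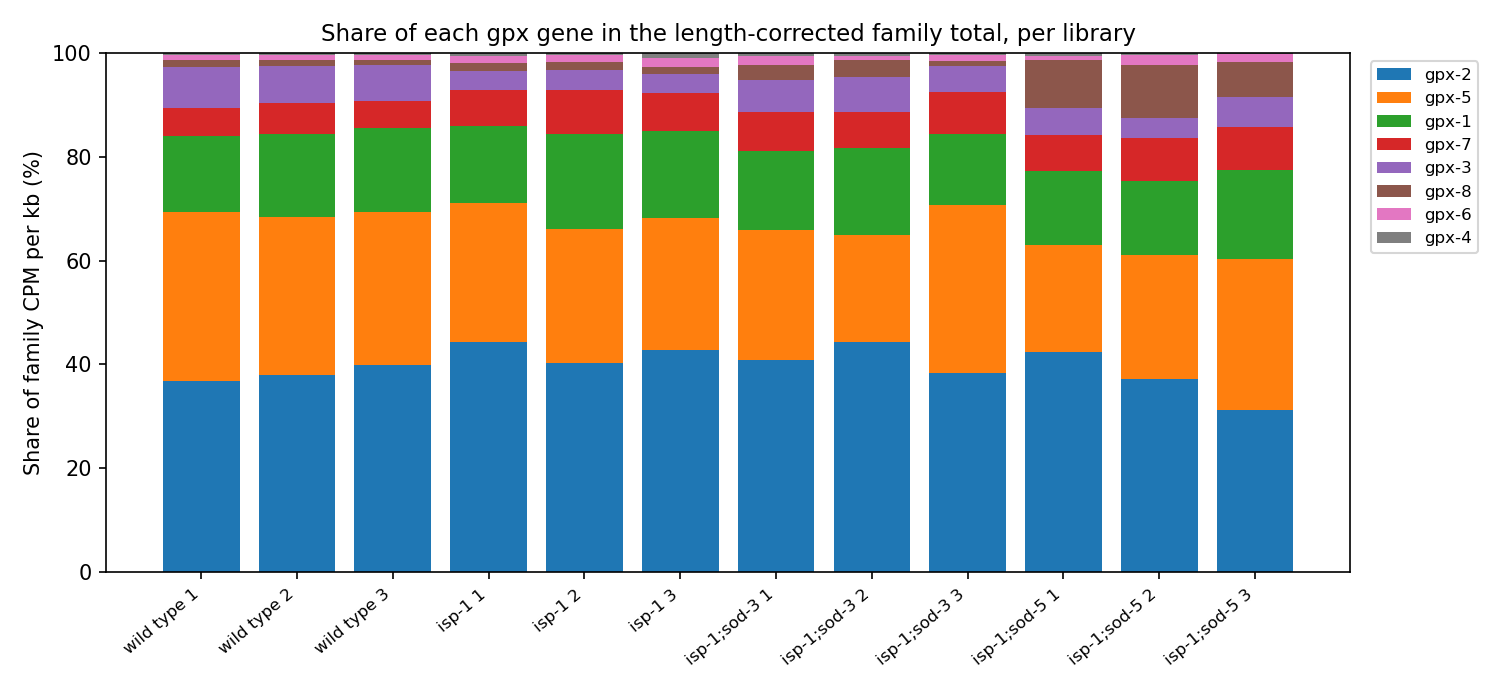
Stacked bars give the share (%) of each gpx gene in the family total of CPM per kb of exon, one bar for each of the 12 libraries. The gpx-8 segment takes 6.68% to 10.2% in the 3 isp-1;sod-5 libraries and at most 3.41% in any other, and the gpx-3 segment averages 3.75% in isp-1 and 7.33% in wild type.

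The summed family level overlapped between genotypes. Wild type had 144 ± 4.07 CPM and the isp-1 mutant 151 ± 7.14 CPM. Of the double mutants, isp-1;sod-5 had 160 ± 18.6 CPM, and isp-1;sod-3 had 152.3 ± 10.5 CPM. The sum of the 4 phospholipid-type genes was 84.7 to 95.8 CPM in wild type and 97.1 to 112 CPM over the 9 libraries of the other genotypes, with no overlap. The other 4 genes summed to 52.3 to 55.3 CPM in wild type and 42.3 to 47.2 CPM in isp-1. Their sums spanned the wild type range in isp-1;sod-3 (39.5 to 59.6 CPM) and isp-1;sod-5 (41.6 to 67.2 CPM). These sums are descriptions and carry no test, and gpx-2 and gpx-5 make up most of them.

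**Figure D2:**
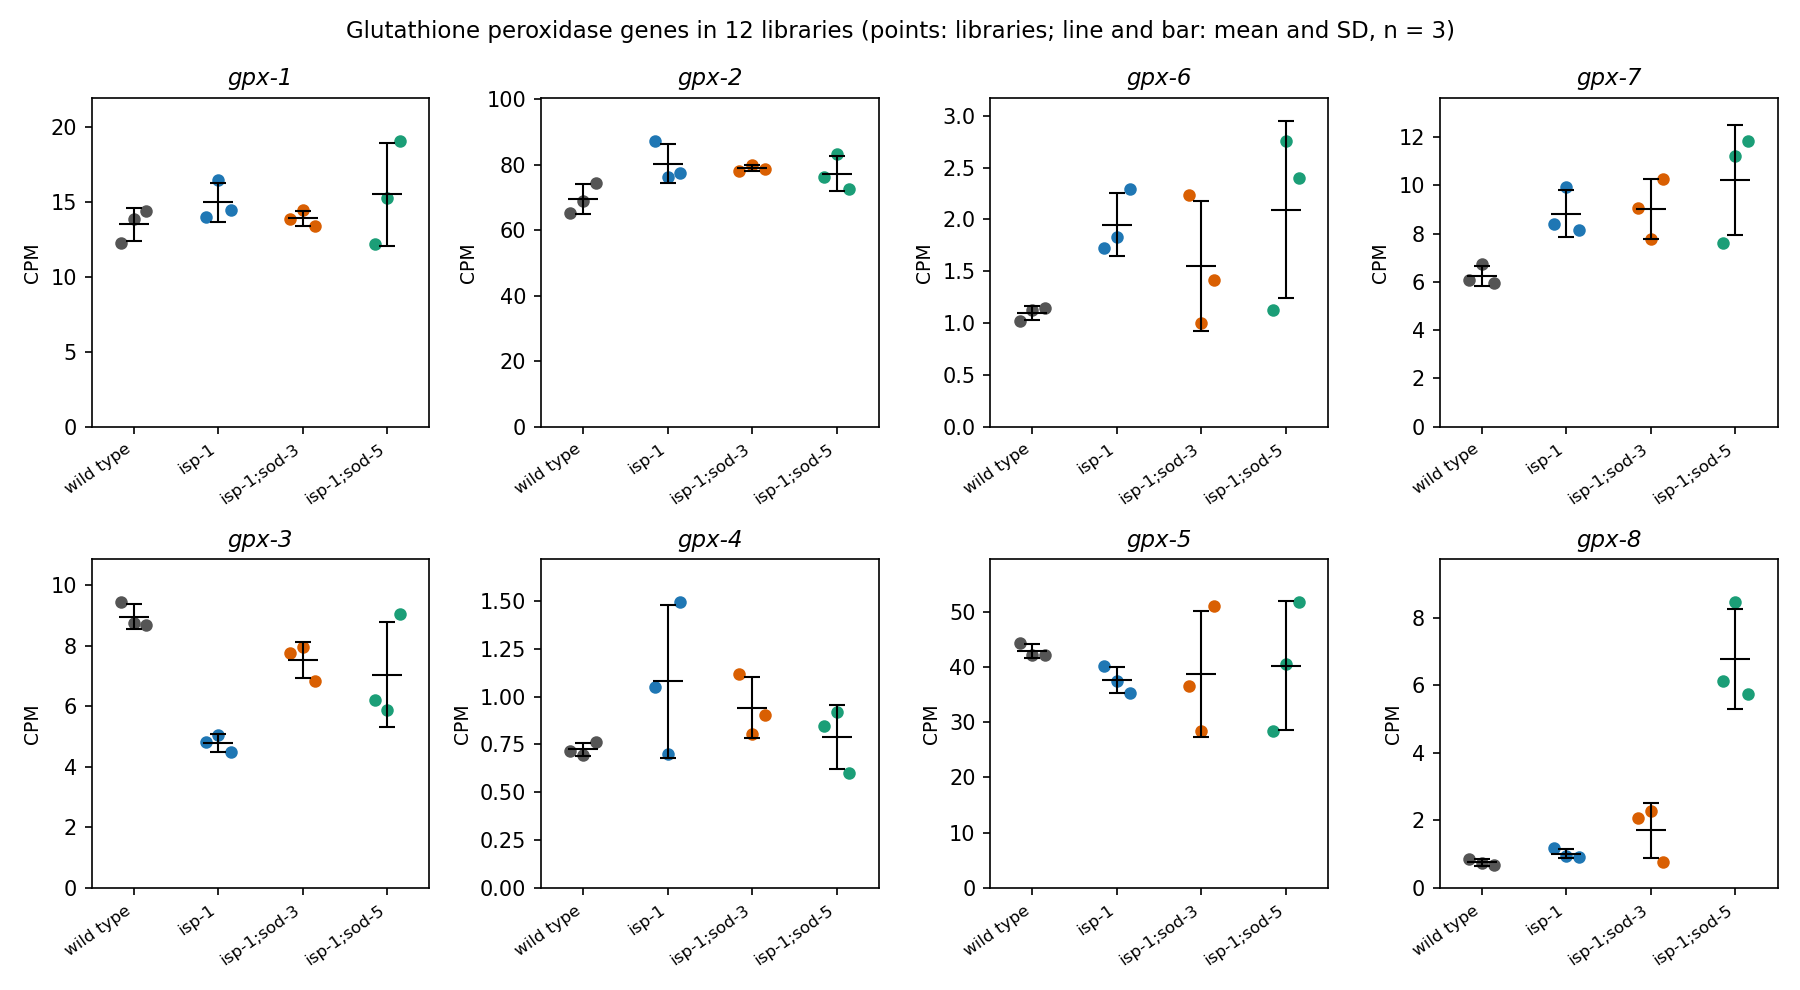
Each panel shows 1 gpx gene, with CPM on a linear axis from 0 and the 4 genotypes along the horizontal axis. Points are libraries and bars are the mean and SD of 3. The gpx-3 points of isp-1 lie below all others in their panel, and the gpx-8 points of isp-1;sod-5 lie above all others in theirs.

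In the isp-1 mutant, compared with wild type to ask what the respiratory chain defect changes, gpx-3 fell and no other member passed the test. The gene for this secreted-type peroxidase was at 9.44, 8.76 and 8.69 CPM in wild type replicates 1 to 3 and at 4.81, 5.05 and 4.48 CPM in isp-1. The 2 genotypes did not overlap, and the means were 8.96 ± 0.414 and 4.78 ± 0.288 CPM. Its level fell by 0.84 on the log2(CPM + 0.5) scale (SE 0.18), 1.79-fold, with a limma adjusted p = 0.00705 by Benjamini-Hochberg over all 14013 tested genes. The gpx call thus numbered 1 of 8 members, against 20.0% of all tested genes called and 10.4% called lower. In whole worms, fewer cells of a type and less RNA per cell cannot be told apart. Summed CPM of 7 intestine markers, out of 8 listed, was 1575 to 1692 in wild type and 1357 to 1458 in isp-1, and that of 10 hypodermis markers was 2453 to 2490 and 1829 to 2168. Per 1000 CPM of intestine markers gpx-3 was at 5.37 to 5.58 CPM in wild type and 3.28 to 3.54 CPM in isp-1. Summed sperm markers, all 32 detected, were at 982 to 1179 CPM in wild type and 387 to 514 CPM in isp-1. These sums fell by a larger factor than gpx-3 did, so the lower gpx-3 level per intestine marker does not carry over to sperm markers. Muscle marker sums were also lower, at 6481 to 7520 CPM in wild type and 5256 to 5972 CPM in isp-1. Those of oocytes (6399 to 6606 and 6359 to 7222 CPM) and neurons (260 to 305 and 272 to 276 CPM) overlapped. The part of tissue and sperm content in the gpx-3 difference was not tested.

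Its tandem neighbour gpx-5 showed a smaller difference that the test did not call. It was at 44.3, 42.1 and 42.1 CPM in wild type and 40.2, 37.6 and 35.4 CPM in isp-1. All 3 mutant values lay below all wild type values, but the log2 difference was -0.18 with a 95% interval of -0.64 to 0.27 (adjusted p = 0.592, limma). The gpx-5 to gpx-3 ratio of CPM was 4.70 to 4.85 in wild type and 7.43 to 8.36 in isp-1. The difference between the 2 genes was not tested.

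The 4 phospholipid-type genes had higher means in isp-1, and none passed the test. For gpx-7 the wild type values were 6.08, 6.73 and 5.94 CPM and the isp-1 values were 8.38, 9.93 and 8.16 CPM. The groups did not overlap (log2 0.46, SE 0.19, limma adjusted p = 0.0977). The gpx-7 call appeared under 4 of 12 other settings of scaling, filter and tool, where the adjusted p ran from 0.0101 to 0.132, so the gene lies close to the threshold. For gpx-6 the values were 1.02, 1.12 and 1.145 CPM against 1.73, 1.83 and 2.30 CPM, again without overlap (log2 0.61, SE 0.29, adjusted p = 0.152). The abundant gpx-2 was at 65.3, 68.9 and 74.4 CPM against 87.2, 76.3 and 77.4 CPM (log2 0.21, SE 0.09, adjusted p = 0.131). Levels of gpx-1 overlapped, at 12.3 to 14.4 CPM in wild type and 13.99 to 16.5 CPM in isp-1 (adjusted p = 0.574), with the reservation about drsh-1 given above.

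The 2 scarce genes gpx-4 and gpx-8 did not pass in isp-1 either. The gpx-4 level was 0.694 to 0.764 CPM in wild type and 0.697 to 1.49 CPM in isp-1 (adjusted p = 0.34), on 8 to 32 reads per library. It exceeded 1 CPM in only 3 of 12 libraries, the minimum for being tested. The gpx-8 level was 0.668 to 0.869 CPM and 0.919 to 1.17 CPM (log2 0.26, 95% interval -0.34 to 0.87, adjusted p = 0.559). Over the family, 4 of 8 members were higher in isp-1 without overlap of libraries, against 26.0% of all tested genes, and 2 of 8 were lower, against 25.7%. The median log2 difference was 0.24 over the 8 genes and 0.01 over all tested genes.

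**Figure D3:**
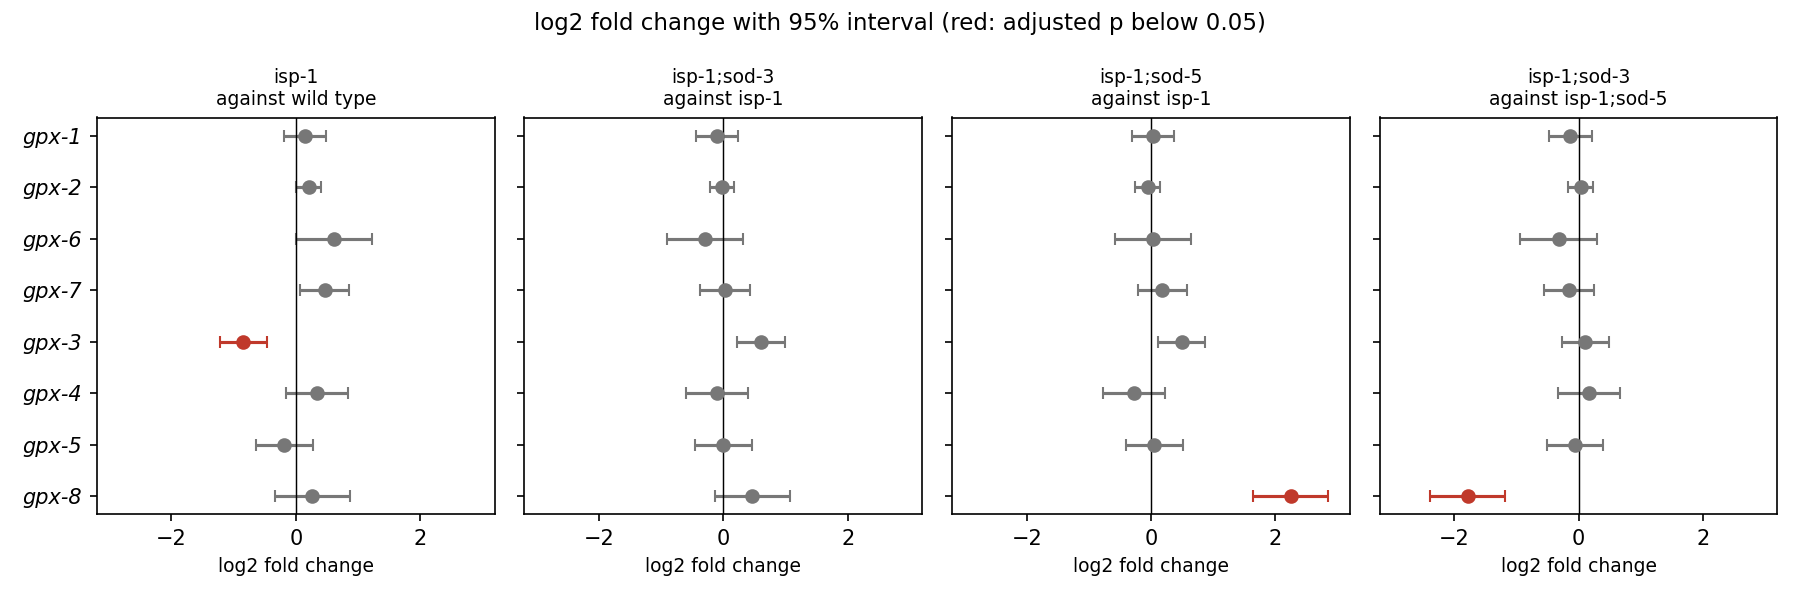
Points give the log2 fold change of each gpx gene and bars its 95% interval from limma, in 4 comparisons, with genes on the vertical axis and a line at 0. Red marks an adjusted p below 0.05, which only gpx-3 reaches in isp-1 against wild type, at -0.84, and only gpx-8 in isp-1;sod-5 against isp-1, at 2.25, and between the double mutants, at -1.78.

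The double mutants were compared with isp-1 to ask what the loss of each dismutase adds. These comparisons share the isp-1 libraries. In isp-1;sod-5 the gpx-8 gene rose, and it was the only member called. Its values were 6.11, 8.46 and 5.75 CPM in isp-1;sod-5, on 65, 46 and 115 reads, and 1.17, 0.959 and 0.919 CPM in isp-1, on 19, 11 and 8 reads. Every isp-1;sod-5 library lay above every library of the other genotypes. The means were 6.77 ± 1.47 and 1.02 ± 0.135 CPM, a ratio of 6.67. On the log2(CPM + 0.5) scale, which understates changes of low genes, the rise was 4.75-fold (log2 2.25, SE 0.28, limma adjusted p = 0.000769). One of 8 members was called in this comparison, against 1.21% of all tested genes called and 0.642% called higher. Among the 90 genes called higher, gpx-8 ranked 8 by log2 fold change. The gene exceeded 1 CPM in 6 of 12 libraries, 3 of them isp-1;sod-5. Without the minimum of 3 libraries above 1 CPM the call held, as it did when any 1 library was left out, with adjusted p from 8.48e-05 to 0.0072. The deposited matrix itself held only genes above 1 CPM in at least 2 libraries, so a fit free of any filter was not possible.

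In isp-1;sod-3 the gpx-8 gene was uneven, and no member was called against isp-1. The gpx-8 values were 2.07 and 2.28 CPM in replicates 1 and 2 but 0.774 CPM in replicate 3, below all 3 isp-1 libraries. The estimate was log2 0.47 (95% interval -0.14 to 1.07, limma adjusted p = 0.72). Across all genes 1.08% were called in this comparison, and 1 gpx gene had an unadjusted p under 0.05 (gpx-3, adjusted p = 0.19). By that unadjusted p gpx-3 ranked 335 among the 14013 tested genes. The edgeR test on recovered reads called 0 of the 8, against 1.47% of all genes it tested, and so did DESeq2, against 2.31%.

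The 2 double mutants differed in gpx-8 when set against each other. The gene was lower in isp-1;sod-3 than in isp-1;sod-5 by log2 -1.78 (SE 0.28, limma adjusted p = 0.0248), with no overlap of libraries. It was 1 of only 15 genes called there, 0.107% of those tested, with 0.0785% called lower. No other member was without overlap, and 3.27% of all tested genes were lower in this way. The call was marginal: it held without isp-1;sod-3 replicate 2 or 3 and was lost without any 1 of the other 10 libraries, with adjusted p from 0.0536 to 0.153, while the estimate stayed between -1.99 and -1.43. The adjusted p was 0.744 with only the 6 double mutant libraries in the fit. For the other 7 members the estimates ran from -0.32 (gpx-6) to 0.16 (gpx-4), and none passed.

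The coding gene next to gpx-8 was high in the same libraries; it was examined after the gpx-8 values were seen. This gene, WBGene00018851, has no name in the annotation, lies on the same minus strand of chromosome I from 10784187 to 10784831 and is 1296 bases from gpx-8. It was at 3.103, 3.86 and 2.998 CPM in isp-1;sod-5, 1.23, 0.523 and 0.689 CPM in isp-1, and 0.267 to 0.430 CPM in wild type. In isp-1;sod-3 it was at 0.774 to 1.61 CPM. The isp-1;sod-5 libraries did not overlap with those of any other genotype. The isp-1 libraries also lay above wild type without overlap, but this difference was not called (log2 0.60, limma adjusted p = 0.121). In isp-1;sod-3 the gene was called higher than in wild type (log2 0.88, adjusted p = 0.035). The rise of WBGene00018851 in isp-1;sod-5 over isp-1 was log2 1.57 (SE 0.26, limma adjusted p = 0.00701), on 20, 6 and 6 reads in isp-1. It was above 1 CPM in 3 isp-1;sod-5 libraries and in 2 others, so it met the minimum for testing only through the genotype where it is high. Without that filter the adjusted p was 0.0068. Between the double mutants its difference was not called (log2 -1.30, adjusted p = 0.171), except without isp-1;sod-3 replicate 2 (adjusted p = 0.0375). The labels give no alleles or crossing history, so loss of sod-5 and other differences of that strain at this locus cannot be told apart. The coding gene on the other side, 5411 bases away, is daf-16, which encodes the forkhead transcription factor of the insulin pathway. It was at 207 to 248 CPM in isp-1;sod-5 and 202 to 210 CPM in isp-1 (log2 0.10, limma adjusted p = 0.791), and the ranges overlapped. The pseudogene WBGene00018852, within 20 kb of gpx-8, was called higher than wild type already in isp-1 (log2 1.31, limma adjusted p = 0.000245). Both double mutants were also called higher than wild type, at log2 1.52 for isp-1;sod-3 and 1.76 for isp-1;sod-5. Neither was called against isp-1 (adjusted p = 0.794 and 0.291).

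**Figure D4:**
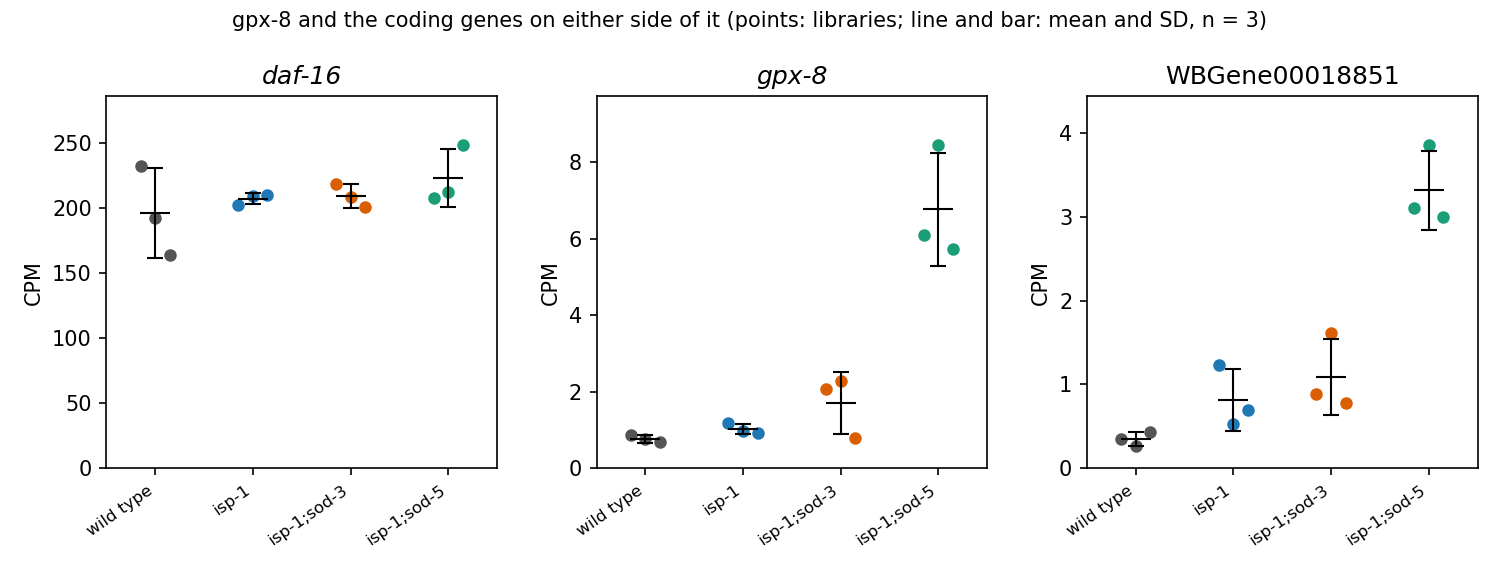
Panels give CPM on a linear axis from 0 for daf-16, gpx-8 and WBGene00018851, in their order along chromosome I, by genotype. Points are libraries and bars are the mean and SD of 3. The 3 isp-1;sod-5 points stand above all others for gpx-8 (5.75 to 8.46 CPM) and WBGene00018851 (2.998 to 3.86 CPM), and the daf-16 points overlap between them and isp-1.

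Of 6104 genes with a locus name and a mean of at least 5 CPM, the 2 whose profiles over the 12 libraries were most like that of gpx-8 were zipt-7.1, a zinc transporter gene (Pearson r = 0.93 on log2 values), and lsl-1 (r = 0.92). Their differences were far smaller: zipt-7.1 had a mean of 68.9 CPM in isp-1 and 85.5 CPM in isp-1;sod-5. For gpx-3 the nearest profiles were those of cap-2, an actin capping protein gene (r = 0.92), and cpr-1, a cysteine protease gene (r = 0.91). The mean of cpr-1 was 117 CPM in isp-1 and 350 CPM in wild type, and the isp-1;sod-5 and isp-1;sod-3 means of 215 and 205 CPM lay between them. For gpx-7 they were tomm-70, a mitochondrial import receptor gene (r = 0.97), and unc-120, a muscle transcription factor gene (r = 0.96). These coefficients describe 12 libraries that share genotype differences and composition, and they carry no test.

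In both double mutants gpx-3 lay between isp-1 and wild type on average. It was at 6.21, 5.88 and 9.04 CPM in isp-1;sod-5. In isp-1;sod-3 it was at 7.76, 7.97 and 6.84 CPM. Every double mutant library was above every isp-1 library, and replicate 3 of isp-1;sod-5, the library with little rrn-3.1, reached into the wild type range. Against isp-1 the log2 difference in isp-1;sod-3 was 0.60 (SE 0.18, 95% interval 0.22 to 0.98, limma adjusted p = 0.19). In isp-1;sod-5 it was 0.49 (95% interval 0.11 to 0.87, adjusted p = 0.275), and 0.31 without that replicate 3 (adjusted p = 0.534). Against wild type gpx-3 in isp-1;sod-5 was at log2 -0.35 (adjusted p = 0.167), and without replicate 3 it was called lower (log2 -0.53, adjusted p = 0.0317). Neither difference from isp-1 was called, and the intervals are not adjusted for the number of genes. Members with no overlap against isp-1 were gpx-3 in isp-1;sod-3 (1 of 8 higher, against 8.79% of all tested genes), and gpx-3 and gpx-8 in isp-1;sod-5 (2 of 8 in either direction, against 16.8%). Between the double mutants the gpx-3 difference was log2 0.11 (95% interval -0.27 to 0.49).

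Marker sums of several tissues ranged more widely among libraries of the double mutants than in isp-1. The gpx-5 level followed the order of some of these sums but not of all. The gpx-5 level was 36.7, 28.5 and 51.1 CPM in isp-1;sod-3 replicates 1 to 3, where summed hypodermis markers were at 2215, 1353 and 3416 CPM. In isp-1;sod-5 it was 28.4, 40.6 and 51.8 CPM beside marker sums of 1794, 2371 and 2450 CPM. Within each double mutant the library with the lowest gpx-5 level also had the lowest marker sum, and the highest went with the highest. Intestine marker sums had the same order, at 1628, 1312 and 1859 CPM in isp-1;sod-3 and at 1450, 1641 and 1886 CPM in the other double mutant. So did sperm marker sums, at 604, 273 and 978 CPM and at 427, 580 and 750 CPM. Oocyte sums had the reverse order in the sod-3 double mutant, at 6123, 8241 and 5521 CPM. In the sod-5 double mutant they were at 7571, 6269 and 6444 CPM, again not the gpx-5 order. Muscle sums kept that order with sod-3 mutated but not with sod-5 mutated, at 5267, 6326 and 4083 CPM. Neuron sums kept it with sod-5 mutated but not with sod-3 mutated, at 318, 296 and 311 CPM. None of the 10 hypodermis markers was at 0 in any library. The means of isp-1;sod-3 (38.7 ± 11.5 CPM) and of isp-1;sod-5 (40.3 ± 11.7 CPM) lay beside the 37.7 ± 2.4 CPM of isp-1 (95% intervals of the log2 difference -0.45 to 0.45 and -0.40 to 0.51). The gpx-3 level of isp-1;sod-3 did not go the same way: its replicate 3, with the highest intestine sum of 1859 CPM, had the lowest gpx-3 level of that genotype. The part of tissue composition in these levels was not tested.

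**Figure D5:**
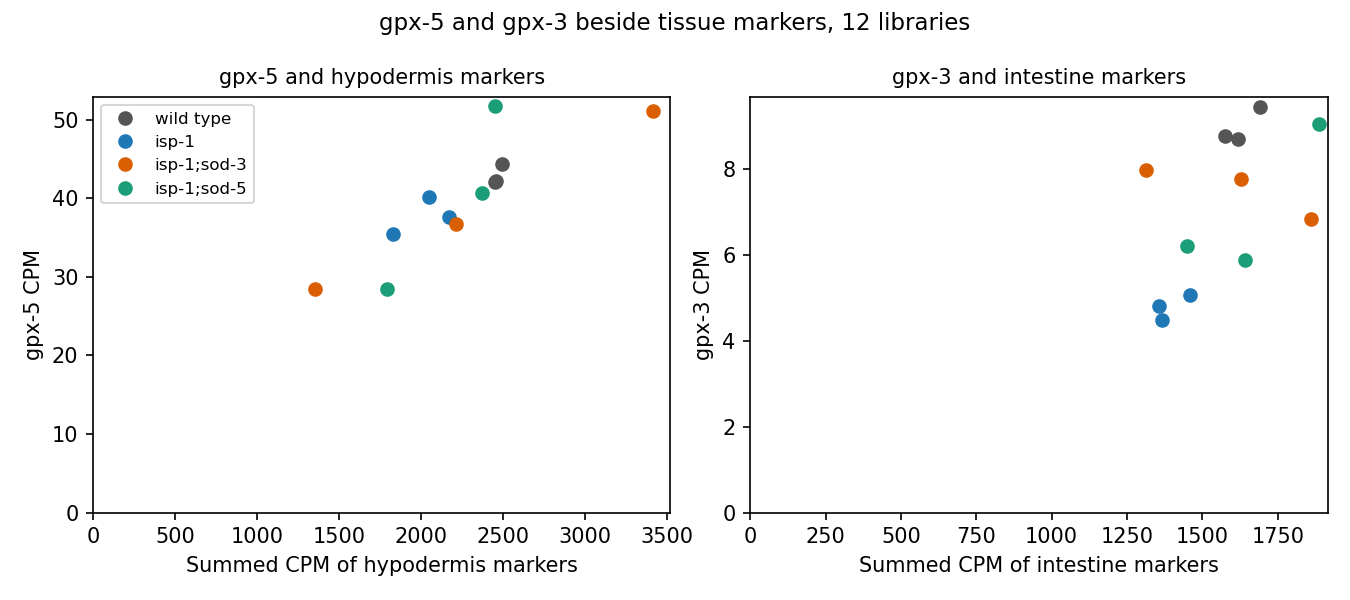
The left panel plots gpx-5 CPM against the summed CPM of 10 hypodermis markers and the right panel gpx-3 CPM against that of 7 intestine markers, one point per library, coloured by genotype. The gpx-5 points extend from 28.4 to 51.8 CPM and are low where hypodermis markers are low, while the isp-1 points of gpx-3 lie below the rest at 4.48 to 5.05 CPM.

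No phospholipid-type gene was called between isp-1 and either double mutant. Across all tested genes the calls against isp-1 were 1.08% in the sod-3 double mutant and 1.21% in the sod-5 double mutant. The absence of calls is therefore not particular to the phospholipid-type genes. The estimates against isp-1 ran from -0.29 (gpx-6, isp-1;sod-3) to 0.18 (gpx-7, isp-1;sod-5). Their precision differed: for gpx-2 the 95% intervals were -0.25 to 0.14 in isp-1;sod-5 and -0.22 to 0.17 in isp-1;sod-3, whereas for gpx-6 they reached from -0.59 to 0.64 and from -0.91 to 0.32. The gpx-6 level in isp-1;sod-5 was 1.13, 2.76 and 2.40 CPM, on only 12, 15 and 48 reads.

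Against wild type, isp-1;sod-5 had 2 members called higher, gpx-8 and gpx-7, and isp-1;sod-3 had none. The wild type libraries are the same ones used for isp-1. In isp-1;sod-5 gpx-8 rose 5.70-fold (log2 2.51, SE 0.28, limma adjusted p = 4.67e-05), and the ratio of its mean CPM to that of wild type was 8.89. The gpx-7 gene rose 1.56-fold, to 7.62, 11.2 and 11.8 CPM (log2 0.65, SE 0.19, adjusted p = 0.0239). That call was lost on leaving out any 1 wild type library, or replicate 2 or 3 of isp-1;sod-5, with adjusted p from 0.0541 to 0.0764. The 2 of 8 members compare with 24.3% of all tested genes called and 14.1% called higher. The same 2 members were those with no overlap, all higher, against 23.7% of all tested genes. In isp-1;sod-3, where 17.0% of tested genes were called against wild type, gpx-7 was at 9.06, 7.77 and 10.3 CPM, above all 3 wild type libraries (log2 0.49, adjusted p = 0.0847), and gpx-8 had an adjusted p of 0.0891. Without overlap in either direction were 4 of 8 members there, against 39.8% of all tested genes: gpx-2, gpx-4 and gpx-7 were higher and gpx-3 was lower. Both edgeR and DESeq2 on recovered reads called gpx-7 and gpx-8 in isp-1;sod-3, with adjusted p from 0.0142 to 0.0486, where they called 20.4% and 23.2% of all genes. In limma 2 members had an unadjusted p under 0.05, gpx-7 and gpx-8. They ranked only 3310 and 3432 by that p among the 14013 tested genes.

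Genes that supply or work beside the peroxidases are given for comparison, and their counts stand against 9.6% of all tested genes called higher and 10.4% called lower in isp-1. Of 8 glutathione synthesis, reduction and glutaredoxin genes 2 rose in isp-1 against wild type and 0 fell (median log2 0.09). They were gcs-1, the rate-limiting enzyme of glutathione synthesis, from 105 ± 3 to 131 ± 4.26 CPM (limma adjusted p = 0.0296), and the glutaredoxin gene glrx-5, from 26.2 ± 2.68 to 34.7 ± 1.32 CPM (adjusted p = 0.0293). Of 11 tested peroxiredoxin, catalase, thioredoxin and thioredoxin reductase genes, out of 13 listed, 3 rose and 0 fell. The 3 were mitochondrial members: the thioredoxin reductase gene trxr-2 (2.18-fold), the thioredoxin gene trx-2 (1.53-fold) and the peroxiredoxin gene prdx-3 (1.31-fold, adjusted p = 0.0164). Of 7 genes that supply NADPH 1 rose, the mitochondrial transhydrogenase gene nnt-1, from 2.1 ± 0.286 to 7.45 ± 0.955 CPM. Among 6 genes of polyunsaturated fatty acid synthesis, whose products are the lipids most prone to peroxidation, the desaturase genes fat-1 (1.21-fold) and fat-2 (1.35-fold) rose and 0 fell. None of these 4 lists had a member called between isp-1 and either double mutant. Of all tested genes only 1.08% were called against isp-1 in the sod-3 double mutant and 1.21% in the sod-5 double mutant. The absence of calls is therefore not particular to these lists. In the sod-3 double mutant nnt-1 lay just above the threshold, at 13.8 ± 2.90 CPM (log2 0.83 against isp-1, limma adjusted p = 0.0504).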

How the data were processed

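The authors deposited one matrix of CPM (reads per 1000000 reads in genes) from 12 libraries, made with a stranded mRNA kit per the labels' protocols. Per the submitters' processing notes, the tools were R 3.3.0 with edgeR 3.14.0, featureCounts 1.4.6 and Subread 1.5.0, and FastQC 0.11.3 and bcl2fastq 2.17.1.14, the build was WBcel235, and no roles were stated. Each column summed to 1000000, and 100.0% of values were whole multiples of 1 read within 0.001 reads, which gave back the reads. All 14326 genes exceeded 1 CPM in at least 2 libraries. Gene names and coordinates came from the Ensembl annotation of WBcel235, in which 14250 of the 14326 identifiers of the matrix were found.

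Genes above 1 CPM in at least 3 libraries (14013, all 8 gpx genes among them) were tested on log2(CPM + 0.5) with limma 3.58.1 in R 4.3.3, using its robust and intensity-trend settings in eBayes. All 12 libraries entered one fit by genotype, so the p-values rest on a spread pooled over genotypes. Tests were two-sided with Benjamini-Hochberg adjustment, called below 0.05, and intervals are 95% and unadjusted. The limma fit was tested on simulated data, with changes placed only in isp-1 against wild type. Genes as scarce as gpx-4, gpx-6 and gpx-8 were not given changes, so that test did not cover the gpx-8 calls. Alternatives included edgeR 4.0.16 and DESeq2 1.42.0 on recovered reads. The members, lists and tests were chosen with earlier results of these data known. Named were all gpx genes, up to 4 called genes per pathway list, and the 2 most similar profiles per called member. WBGene00018851, WBGene00018852, daf-16 and drsh-1 were added after values were seen.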

Additional observations from a re-analysis of the deposited data

Results flagged for a closer look

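One result was marked for a closer look because 2 effects under the same contrast differed by a test of the difference itself. Set against the same isp-1 libraries, the 2 double mutants differed in gpx-8, by log2 -1.78 for isp-1;sod-3 relative to isp-1;sod-5 (limma adjusted p = 0.0248), where the means were 6.77 ± 1.47 CPM in isp-1;sod-5, and 1.71 ± 0.814 CPM in isp-1;sod-3 (SD, n = 3). All 3 isp-1;sod-5 libraries were above all 3 isp-1;sod-3 libraries. The call was marginal: it held in only 2 of the 12 fits that left out 1 library. With only the 6 double mutant libraries in the fit the limma adjusted p was 0.744. Groups of 3 are too small for the test of single outlying libraries used here. Loss of each dismutase gene and other differences between the strains cannot be told apart here.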

How the results depend on the processing

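The fall of gpx-3 in isp-1 (log2 -0.92 to -0.75) and the rises of gpx-8 in isp-1;sod-5 against isp-1 and against wild type kept their calls under every alternative that tested them. Of 1140 gene values under alternatives, 18 calls were lost, 18 were gained and 0 reversed, and 47 changed sign where neither value was called. In isp-1 against wild type the count of called members was 1, and it was 2 with median centring or DESeq2, and 3 with quantile normalization or only the 6 compared libraries, the additions being gpx-7 and then gpx-6. Leaving out single libraries gave 1 to 2. Calls over all genes moved as well. The main fit called 1345 of 14013 genes higher in isp-1 and 1453 lower. DESeq2 called 1524 higher and 1864 lower of 14012, and the fit of only the 6 compared libraries 2700 and 3002 of 14013. The larger gpx counts under those 2 settings are therefore not read as particular to these genes. In isp-1;sod-3 against wild type the count of 0 became 1 with median centring or quantile normalization and 2 with edgeR or DESeq2, and 0 to 1 with single libraries left out. In isp-1;sod-5 against wild type the count of 2 became 3 with quantile normalization, which added gpx-6 (adjusted p = 0.0328), 1 at an adjusted p below 0.01, and 1 to 3 with single libraries left out. Requiring above 1 CPM in all 12 libraries left 6 members and removed gpx-4 and gpx-8, so the counts became 0 in isp-1;sod-5 against isp-1, 0 between the double mutants and 1 in isp-1;sod-5 against wild type. Between the double mutants the count of 1 was also 0 with a pseudocount of 0.1, with quantile normalization, with only the 6 compared libraries, at an adjusted p below 0.01, and 0 to 1 with single libraries left out; apart from the filter and the threshold, the causes were not tested. In isp-1;sod-5 against isp-1 it was 1 to 1, and in isp-1;sod-3 against isp-1 0 to 0, with single libraries left out. A replicate block changed none of these 6 counts, which stayed at 1, 0, 1, 1, 0 and 2 in the order isp-1 against wild type, each double mutant against isp-1, the double mutants against each other, and each double mutant against wild type. Same-numbered libraries did not deviate together (r from -0.55 to 0.33), so the numbers were not read as pairs. Low counts limit gpx-4, gpx-6 and gpx-8, where libraries hold as few as 5, 12 and 8 reads. The rise of WBGene00018851 over isp-1 kept its call in all 23 alternatives that tested it, which were chosen after seeing the data. The gene met the minimum for testing only through isp-1;sod-5, where it is high, so this count is no separate support for the rise.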
